A study of Rattus norvegicus with 22 samples.

Results

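The miR-34 and miR-449 family was followed in small RNA libraries from the hippocampus of adult rats. Members were all names in the deposited files that read miR-34 or miR-449, with any letter and either arm. They were 5 of 468 distinct names: rno-miR-34a-5p, rno-miR-34b-5p, rno-miR-34b-3p, rno-miR-34c-5p and rno-miR-34c-3p, written below without the prefix for rat. miR-449 was not analysed here. The libraries came from 14-week-old male Long Evans rats, an outbred pigmented strain. One group of 11 had been given the insecticide chlorpyrifos (CPF), an organophosphate and blocker of acetylcholinesterase, by injection under the skin at 10 mg/kg of body weight on each of 21 days. The control group of 11 had been given the peanut oil vehicle over the same 21 days. RNA was taken from the CA1 region, per the labels' protocols. The protocols describe rats with and without fear conditioning, but the labels do not assign libraries to either cohort. Animals are not identified in them, and p-values here therefore reflect only how far these libraries spread, which may in part be technical.

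A microRNA (miRNA) is cut from a hairpin transcript, and either arm of the hairpin (5p or 3p) can be loaded into a silencing complex. The seed, bases 2 to 8 from the 5′ end, is the main stretch that pairs with target transcripts. The family is known for the induction of miR-34a, and of the miR-34b/c cluster, by the tumour suppressor p53. miR-34b/c and miR-449 are also known for their high level in multiciliated cells, which in the brain include the ependyma that lines the ventricles. miR-34c has been linked to memory in the mouse hippocampus.

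The sequences show which members can be told apart and which share a seed, in capitals here. They are the mature rat sequences of RefSeq (build GRCr8), where 5 of 5 members were matched by name. They are written 5′ to 3′.
miR-34c-5p: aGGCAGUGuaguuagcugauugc
miR-34b-5p: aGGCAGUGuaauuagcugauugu
miR-34a-5p: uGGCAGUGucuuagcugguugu
miR-34c-3p: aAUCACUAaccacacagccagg
miR-34b-3p: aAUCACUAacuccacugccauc

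The 3 members from the 5p arm share the seed GGCAGUG, and both 3p members share AUCACUA. No other name in the files with a RefSeq sequence (410 of 468 names had one) carried either seed. Over 23 bases miR-34c-5p and miR-34b-5p are identical at 21, and the substitutions are G11A and C23U, counted from 1 at the 5′ end with the base of miR-34c first. Over 22 bases miR-34c-3p and miR-34b-3p are identical at 17, with C11U, A12C, A16U, G21U and G22C. miR-34c-5p and miR-34a-5p are identical at 11 of 22 aligned positions without gaps. How reads that match both miR-34b-5p and miR-34c-5p were assigned is not given in the sources used here, so their split is uncertain.

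The hairpins of Mir34c and Mir34b are shown with both mature arms in capitals, since the 2 arms of each were measured separately.
Mir34c: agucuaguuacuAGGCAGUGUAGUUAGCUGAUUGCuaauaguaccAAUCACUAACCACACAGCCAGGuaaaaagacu
Mir34b: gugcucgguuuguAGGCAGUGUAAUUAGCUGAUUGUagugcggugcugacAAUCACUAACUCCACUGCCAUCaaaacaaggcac

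Mir34b and Mir34c are direct neighbours in the GRCr8 annotation. Both lie within the span of Hoatz, a gene linked to motile cilia, and the gene on the other side of Mir34b is Btg4. Mir34a lies on another chromosome. Whether strand was used in counting is unstated, so reads from Hoatz transcripts on these stretches could not be told apart from miRNA reads by strand.

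Levels are in RPM, the reads of a name scaled to a fixed library total. The libraries were shallow, with 47844 to 94980 recovered miRNA reads, so that 1 read was worth 10.5 to 20.9 RPM. A level of 3 reads, taken as the floor, was 31.6 to 62.7 RPM per library, which is also what a count of 0 allows. Intervals and floors from reads cover counting error only. The neuronal miRNAs of the hippocampus were present. Names were found for 8 of 8 listed neuronal miRNA genes, led by miR-9a-5p at 52435 ± 7700 RPM in control libraries (SD, n = 11) and 50852 ± 7160 RPM in CPF libraries (SD, n = 11). CPF replicates 7, 8 and 9 stood apart from all other libraries in miRNAs of the choroid plexus, and results that rest on them are given with and without them.

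A single arm made up most of the family. miR-34c-5p had 700 of the 768 family reads over all libraries (91.1%). It ranked 78 of 468 names by mean RPM and was detected in all 22 libraries. The next member, miR-34c-3p, ranked 241, and the other 4 had 26 (miR-34c-3p), 17 (miR-34b-3p), 16 (miR-34b-5p) and 9 reads (miR-34a-5p). The ranges of these 4 overlapped, from 0 to at most 61.9 RPM in any library, so their order is not given by these data. The lowest miR-34c-5p value, 149 RPM, lay above every value of the other members. These are whole mature miRNAs of 22 or 23 bases, compared in RPM and not corrected for differences in adapter ligation.

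The question of the comparison was which hippocampal miRNAs differ after 21 days of CPF. No member passed the test. With limma on log2(RPM + 1), 0 of the 4 members above the minimum for testing passed an adjusted p of 0.05, where 0.733% of all 273 tested names did. miR-34c-5p and miR-34b-3p had an unadjusted p under 0.05, as did 6.59% of all tested names. miR-34a-5p was under the minimum of 10 RPM in 11 libraries. miR-34b-3p met it through its CPF libraries, which were 9 of the 11 at or above 10 RPM. miR-34b-5p also met it through its CPF libraries, 8 of the 12 at or above 10 RPM. Nothing is therefore read from these counts of members.

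miR-34c-5p ran from 149 RPM through a median of 303.2 to 509 RPM in control libraries. In CPF libraries it ran from 239 through 417 to 1839 RPM. The groups overlapped, and 3 CPF libraries, replicates 7, 8 and 9, lay above the highest control at 682, 990 and 1839 RPM. In reads, these 3 held 51, 80 and 88, against 8 to 43 in the other 19 libraries.

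The group means of miR-34c-5p were 332 ± 104.7 RPM in control and 579 ± 471 in CPF (SD, n = 11 each). The log2 fold change was 0.57 (SE 0.269, 95% CI 0.02 to 1.13), or 1.49-fold, and did not pass with limma (p = 0.0420, adjusted p = 0.677). Of the CPF libraries, 8 of 11 lay above the control median. Without CPF replicates 7, 8 and 9 the CPF mean was 357 ± 91.9 RPM (SD, n = 8), and the log2 fold change was 0.13 (95% CI -0.27 to 0.53, limma adjusted p = 0.981). Leaving out CPF replicate 9 alone brought it to 0.38. In bulk tissue, fewer or more cells of a type and less or more RNA per cell cannot be told apart.

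**Figure D1:**
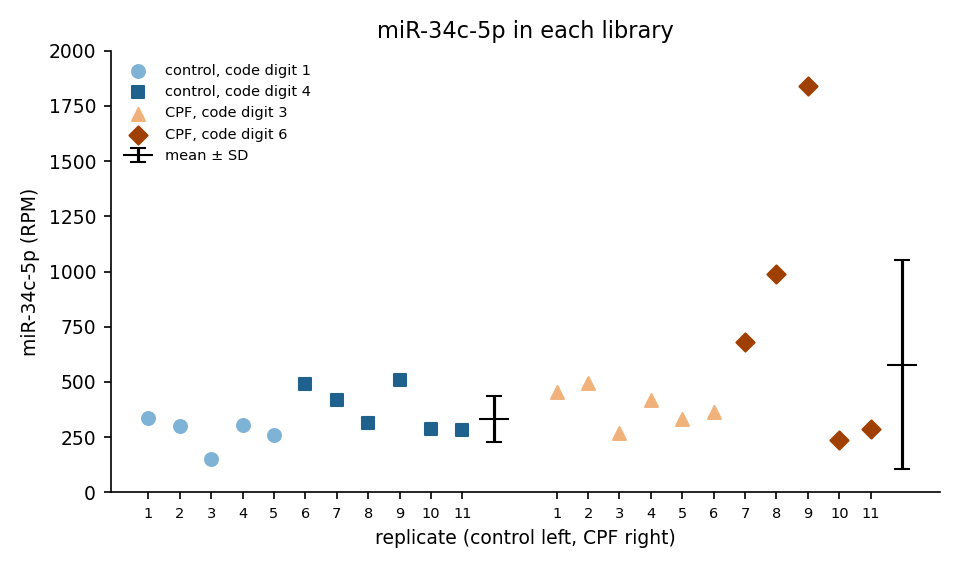
miR-34c-5p in each of the 22 libraries (y axis, RPM from 0) by replicate number (x axis, control left and CPF right), coloured by the first digit of the library code, with each group's mean ± SD (n = 11) in black. CPF replicates 7, 8 and 9 stand at 682, 990 and 1839 RPM, while the other 19 libraries lie between 149 and 509 RPM.

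The libraries carry code numbers whose first digit splits the control group into digits 1 (n = 5) and 4 (n = 6) and the CPF group into 3 (n = 6) and 6 (n = 5). What the digit stands for is not stated. miR-34c-5p averaged 270 ± 73.0 RPM at digit 1, 385 ± 102 at digit 4, 389 ± 82.8 at digit 3 and 807 ± 653 at digit 6 (SD). The 3 high libraries all carry digit 6, whose other 2 libraries, CPF replicates 10 and 11, were at 239 and 287 RPM. Since it is not stated which digits match, both matchings were fitted.

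In these fits of miR-34c-5p no contrast passed. Between digits 3 and 1 its log2 difference was 0.55 (95% CI -0.19 to 1.28, limma adjusted p = 0.978), and 0.366% of tested names passed there. Between digits 6 and 4 the difference was 0.71 (95% CI -0.03 to 1.45, limma adjusted p = 0.632, with 0.366% of names passing). In the other matching it was 0.03 between digits 3 and 4 (95% CI -0.67 to 0.73, limma adjusted p = 0.989, with 0% of names passing).

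Digits 6 and 1 differed most in miR-34c-5p, by 1.23 (95% CI 0.46 to 2.0, limma adjusted p = 0.159, with 0.733% of names passing). edgeR on recovered reads gave 1.53 for this contrast, closer to the threshold (adjusted p = 0.0575). Without CPF replicates 7, 8 and 9, which leaves 2 libraries of digit 6, the difference from digit 1 was 0.0088 (limma adjusted p = 0.992) and that from digit 4 turned to -0.51. The CPF effect was not shown to differ between the digits. The difference of the effects was 0.16 when 6 was set against 4 (95% CI -0.88 to 1.2, limma adjusted p = 0.955). It was 1.2 when 6 was set against 1 (95% CI 0.16 to 2.24, limma adjusted p = 0.562). Within a group, digit 4 was above digit 1 by 0.52 in control (limma adjusted p = 0.947) and digit 6 above digit 3 by 0.68 in CPF (adjusted p = 0.712), and neither passed.

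miR-34c-3p, the other arm of the miR-34c hairpin, averaged 1 read per library in control and 1.36 in CPF. It ran from 0 through a median of 13.7 to 57.7 RPM in control and from 0 through 12.2 to 61.9 RPM in CPF libraries. It was detected in 6 of 11 control and 8 of 11 CPF libraries, and the groups overlapped over nearly their whole range. The means were 14.1 ± 18.1 and 19.1 ± 20.2 RPM (SD, n = 11 each), under the floor, so no fold is given, and the test did not pass (limma adjusted p = 0.954). The high CPF libraries of the 5p arm held 3, 5 and 2 reads of the 3p arm, and the other 8 CPF libraries 0 or 1. Without those 3 libraries the CPF mean was 8.24 ± 7.09 RPM (SD, n = 8), below that of the controls.

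The 5p arm thus held most reads of the miR-34c hairpin, with 26.9 reads of 5p for each of 3p over all libraries. Its share of the hairpin's reads was 96.2 ± 4.47% in control libraries (SD, n = 11) and 97.2 ± 2.13% in CPF libraries (SD, n = 11). The difference of 1.00 percentage points was within the spread between libraries (p = 0.513, permutation test on the means, two-sided). In CPF replicates 7, 8 and 9 it was 94.4, 94.1 and 97.8%, within the control range of 87.9 to 100%.

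miR-34b-3p was detected in 2 of 10 control libraries, with 1 read each, and in 9 of 11 CPF libraries, with 1 to 3 reads each. It has no value for control replicate 2 here, and the fit treats it as missing there. It ran from 0 through a median of 0 to 18.6 RPM in control libraries and from 0 through 20.9 to 40.1 RPM in CPF libraries. The groups overlapped, with 6 CPF libraries above the highest control.

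Summed over the group, miR-34b-3p had 2 reads in control, or 2.82 RPM (exact Poisson 95% interval 0.341 to 10.2), and 15 in CPF, or 18.4 RPM (10.3 to 30.3). These intervals leave out the spread between libraries, so they do not compare the groups. The means were 3.18 ± 6.82 (SD, n = 10) and 18.8 ± 12.1 RPM (SD, n = 11), under the floor in both groups, and no fold is given. The groups did not differ past the threshold (limma adjusted p = 0.188). Since its CPF values brought it over the minimum, the fit of all names with no minimum is given beside it (limma p = 0.00255, adjusted p = 0.289), and it did not pass there either.

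Unlike miR-34c-5p, the higher miR-34b-3p values in CPF did not come mainly from replicates 7, 8 and 9. Those 3 libraries held 3, 0 and 1 reads, and 7 of the other 8 CPF libraries held 1 or 2. Without them the CPF mean was 18.3 ± 9.57 RPM (SD, n = 8), and in a fit with no minimum the unadjusted p was 0.00267 (limma adjusted p = 0.298). This pattern was noted after the values were seen, and the difference between the 2 miRNAs was not tested.

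By code digit, miR-34b-3p was detected in 6 of 6 libraries of digit 3 (13.9 to 30.02 RPM), 3 of 5 of digit 6, 2 of 4 of digit 1 and 0 of 6 of digit 4. The contrast of digit 3 against 4 had the lowest adjusted p (limma 0.0602, and 0.0531 without CPF replicates 7, 8 and 9), with 0% of names passing. These fits kept the minimum that miR-34b-3p met through its CPF libraries, and digit contrasts with no minimum were not run. Nothing is therefore read from how near the threshold this contrast came. The adjusted p was 0.978 for 3 against 1, 0.574 for 6 against 4 and 0.962 for 6 against 1 (limma).

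miR-34b-5p, from the same hairpin, was detected in 4 of 11 control libraries, at 1 read each. In CPF libraries it was detected in 8 of 11, with 1 to 3 reads each. It ran from 0 through a median of 0 to 14.97 RPM in control and from 0 through 12.4 to 41.7 RPM in CPF, where replicate 4 was highest. The means were 5.21 ± 7.24 and 14.4 ± 13.1 RPM (SD, n = 11 each), under the floor, and the groups did not differ past the threshold (limma p = 0.0834, adjusted p = 0.788). Over all control libraries it had 4 reads and over all CPF libraries 12. As its CPF values brought it over the minimum, the fit of all names with no minimum is given as well (limma p = 0.0786, adjusted p = 0.877). miR-34b-5p did not pass there either.

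miR-34a-5p, the member best known as a p53 target, was at the limit of detection in both groups. It had 6 reads over all control libraries, 1 in each of 6 of 11, and 3 over all CPF libraries, in 2 of 11. It ran from 0 through a median of 12.6 to 18.6 RPM in control and from 0 through 0 to 27.02 RPM in CPF, with means of 7.97 ± 7.78 and 3.57 ± 8.60 RPM (SD, n = 11 each). The groups overlapped. A fit with no minimum did not call it (limma p = 0.10, adjusted p = 0.877). Its mean was lower in CPF, while those of the other 4 members were higher, and a difference was not detectable at this depth.

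**Figure D2:**
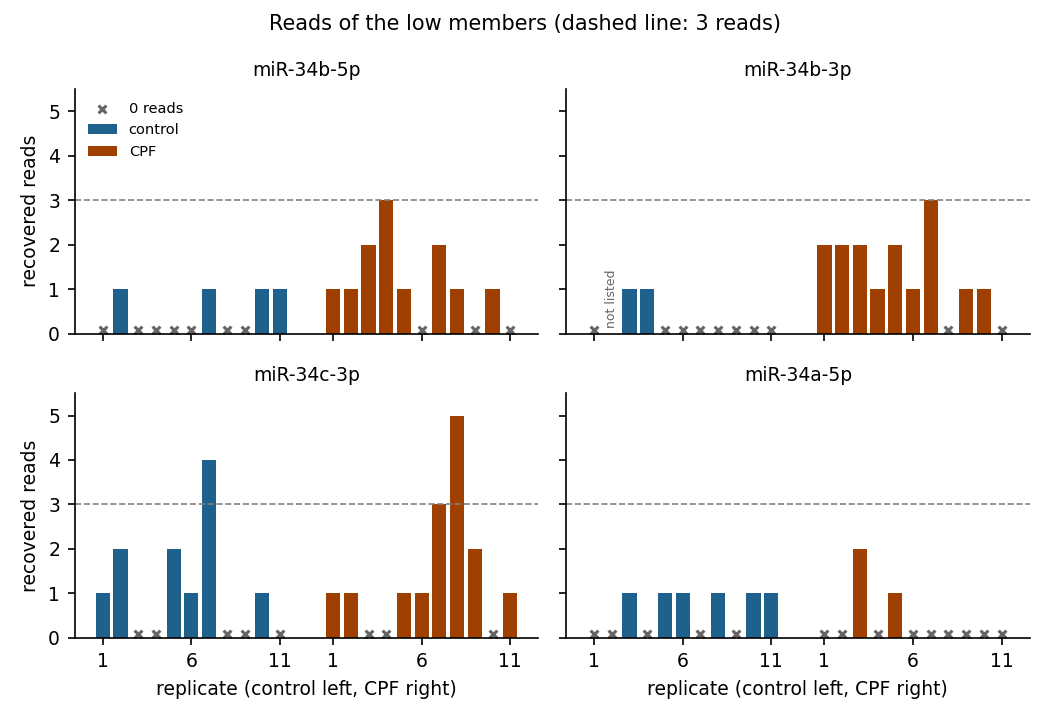
Recovered whole reads (y axis) of miR-34b-5p, miR-34b-3p, miR-34c-3p and miR-34a-5p in each library (x axis, replicate number, control left in blue and CPF right in brown), with crosses at 0 reads and a dashed line at the floor of 3 reads. miR-34b-3p has bars in 2 of 10 control and 9 of 11 CPF libraries, and most bars in all 4 panels lie under the floor.

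The members were next compared with each other across libraries, in log2(RPM + 1), over 10 pairs. The 2 arms of miR-34c had Pearson r = 0.52 (permutation p = 0.00894, adjusted p = 0.0894) and Spearman rho = 0.52 (permutation p = 0.0148, adjusted p = 0.0738) over 22 libraries. Without the 2 libraries farthest from the median of miR-34c-5p, r was 0.40. Within control r was 0.25 and within CPF 0.70 (permutation adjusted p = 0.782 and 0.154, n = 11 each). Without CPF replicates 7, 8 and 9 it was 0.31, so the relation rests largely on those libraries. None of the 10 pairs passed. miR-34c-5p and miR-34a-5p, with 9 reads of the latter in all, had r = -0.46 (permutation p = 0.0264, adjusted p = 0.132) and rho = -0.55 (permutation p = 0.00955, adjusted p = 0.0738). For the other 8 pairs the adjusted p of r was 0.407 to 0.863 (permutation). miR-34c-5p and miR-34b-3p, from neighbouring hairpins, had r = 0.08 (n = 21), with at most 3 reads of miR-34b-3p in any library.

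The spread of miR-34c-5p was large for its level. Its SD within groups was 0.71 in log2(RPM + 1), against a median of 0.36 among 61 other tested names with a mean within 2-fold, and 58 of those 61 had a lower SD. In control libraries alone its SD was 0.48, with 49 of 61 lower. In CPF libraries it was 0.88, with 58 of 61 lower, and without replicates 7, 8 and 9 it was 0.37, with 37 of 61 lower. These are descriptions with no test. The low members had SDs of 1.8 to 2.34, where names of like level had medians of 2.14 to 2.20.

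**Figure D3:**
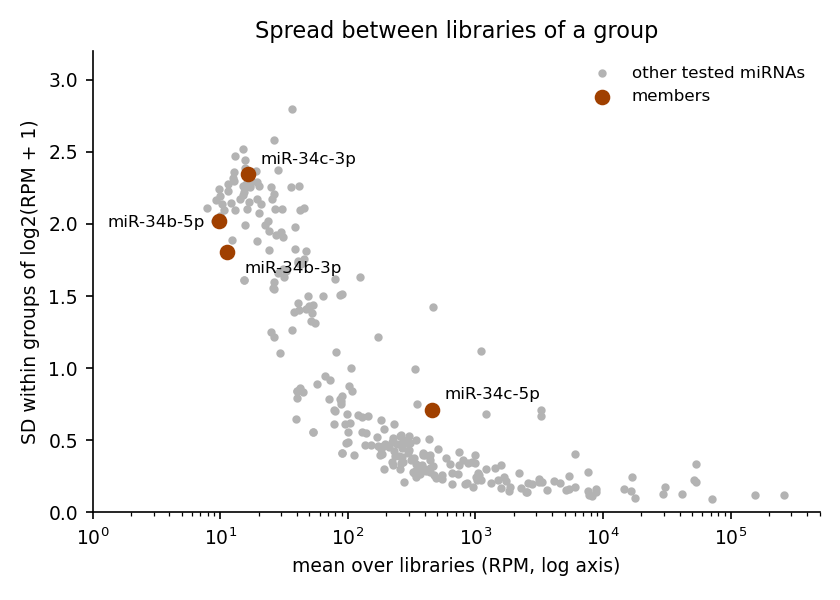
SD within groups of log2(RPM + 1) (y axis) against mean level (x axis, RPM, log axis) for the 273 tested miRNAs, with the 4 tested members in brown. miR-34c-5p, at an SD of 0.71, lies above most names of like level, and the 3 low members averaged 0.73 to 1.18 reads per library.

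The names most like miR-34c-5p over the 22 libraries were found by Pearson's r of log2(RPM + 1) among 269 other tested names, whose median r was -0.07. The first 5 were miR-1298 (r = 0.84), miR-182 (0.69), miR-204-5p (0.67), miR-375-3p (0.60) and miR-448-3p (0.58). miR-1298, miR-204-5p and miR-448-3p are miRNAs of the choroid plexus, the secretory tissue of the ventricles. The points share library, depth and scaling to 1 total, and no test was made. In the 19 libraries other than CPF replicates 7, 8 and 9 the same names had r = 0.42, 0.22, -0.05, 0.53 and 0.12.

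In CPF replicates 7, 8 and 9, miR-1298 was at 869, 2425 and 3929 RPM, while the other 19 libraries held 37.2 to 292 RPM. miR-204-5p was at 454, 940 and 1191 RPM there and at 149 to 411 RPM in the 19. miR-448-3p was at 120, 532 and 920 RPM there and at 0 to 116 RPM in the 19. All 3 were thus highest in the same libraries as miR-34c-5p, and in the same order of libraries.

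The list of choroid plexus and ependyma miRNAs had names for 4 of 6 listed genes. It left out the members, among them the miR-34b/c named above for the ependyma. Of its 5 names 3 were tested and 0 passed in either direction, where 0.733% of all 273 tested names did. Their median log2 fold change was 1.61, beside 0.02 over all tested names. Without CPF replicates 7, 8 and 9 it was 0.65, and again 0 passed. The summed level of the 4 names held by all libraries ran from 264 to 599 RPM in control and from 311 to 6040 RPM in CPF. It was 1443, 3897 and 6040 RPM in CPF replicates 7, 8 and 9 and at most 737 RPM in the other 19 libraries. The most abundant name of the sum in those replicates was miR-1298, at 869, 2425 and 3929 RPM. Pearson's r of the sum with miR-34c-5p was 0.82 over 22 libraries and 0.21 over the 19. miR-211-5p, of this list, was near 0, with reads in 4 of 22 libraries. The part of choroid plexus or ependymal RNA in the miR-34c-5p values was not tested.

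**Figure D4:**
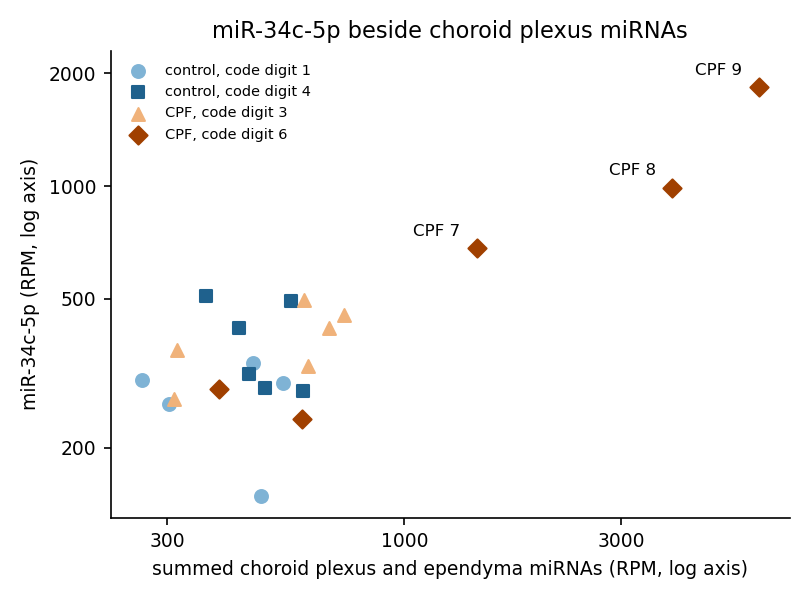
miR-34c-5p (y axis, RPM, log axis) against the summed level of 4 choroid plexus and ependyma miRNAs (x axis, RPM, log axis) in the 22 libraries, coloured by code digit. CPF replicates 7, 8 and 9 lie apart at the upper right, at sums of 1443, 3897 and 6040 RPM, and the other 19 libraries form a cloud with sums of 264 to 737 RPM.

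Marker lists of other cell types were summed in the same libraries. Each of the 3 sums below rested largely on its most abundant name. Means over all libraries were 51643 RPM for miR-9a-5p (neurons), 53109 for miR-338-3p (oligodendrocytes) and 263757 for miR-143-3p (vessel wall and muscle). The neuronal list summed to 54470 to 79476 RPM over the other 19 libraries, and to 65346, 65072 and 57207 RPM in CPF replicates 7, 8 and 9. The oligodendrocyte list summed to 33453 to 90059 RPM in the 19 and to 57177, 58530 and 44424 RPM in the 3. The vessel wall and muscle list reached 285506, 282641 and 313435 RPM there, against 221172 to 295715 RPM in the 19, so CPF replicate 9 was the highest of all libraries. This replicate also had the fewest recovered reads, 47844, while replicates 7 and 8 had 74832 and 80834. The part of depth in its value was not tested.

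As p53 is the best-known regulator of the family, other miRNAs reported to be raised by p53 were read from the same fit. Names were found for 7 of 8 listed genes. Of 11 names 6 were tested, and 0 were higher and 0 lower past the threshold, which 0.733% of all 273 tested names passed. With so few names, nothing is read from that count. Their median log2 fold change was 0.08, beside 0.02 over all tested names. The most abundant name of the list, miR-22-3p, averaged 4250 ± 803 RPM in control libraries and 4875 ± 410 RPM in CPF libraries (SD, n = 11 each, log2 fold change 0.21, limma adjusted p = 0.431). miR-107-3p was at 3607 ± 317 and 3658 ± 437 RPM, a log2 fold change of 0.02 (limma adjusted p = 0.974).

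Other analyses of CPF against control, some with libraries left out, gave miR-34c-5p a log2 fold change between 0.13 and 0.83. The lowest was without CPF replicates 7, 8 and 9, and none gave an adjusted p under 0.05. edgeR on recovered reads gave 0.79 (p = 0.0170, adjusted p = 0.292), where it called 2.86% of 140 names, and DESeq2 gave 0.83 (p = 0.0147, adjusted p = 0.949), where it called 1.2% of 418 names. A permutation test of mean RPM gave p = 0.0688 (adjusted p = 0.783).

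**Figure D5:**
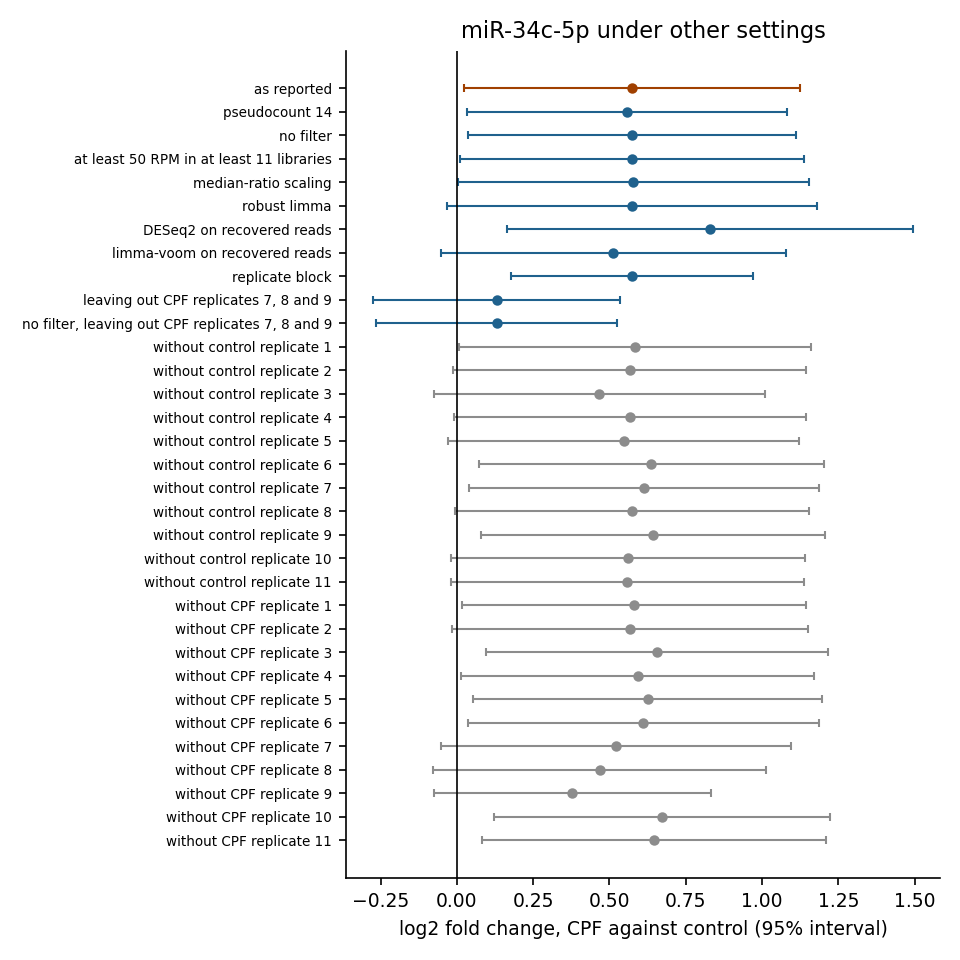
Log2 fold change of miR-34c-5p, CPF against control (x axis), with its 95% interval, as reported (brown), under other settings that give an interval (blue) and with each library left out in turn (grey). All points lie above 0, and the estimate is lowest, at 0.13, without CPF replicates 7, 8 and 9.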

How the data were processed

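Per the labels' protocols, TruSeq small RNA libraries were run on an Illumina HiScanSQ. The authors deposited, per library, a value in RPM (reads scaled to a fixed library total) for each miRNA name, per the file headers. The build rn4 and the tools Bowtie, CASAVA 1.8.2, Partek 6.6 and cutadapt 1.2 are listed in the submitters' processing notes. Not given in the sources used here are the annotation, how strand was used and how reads matching several miRNAs were handled. As the reference tables are of GRCr8, coordinates are left out.

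Repeated rows of a name were summed (484 rows, 468 names). The file of control replicate 2 has 448 rows, and its missing names were treated as missing. Low values are multiples of a step, from which the RPM of 1 read was recovered in each library. Within 0.02 RPM, 92.8 to 97.4% of the values above 0 of a library are whole reads. The rest, fractions of a read, were rounded for the count tests. Between any 2 libraries of a group the chi-square per degree of freedom was at least 2.49, above sampling noise.

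The main test, on log2(RPM + 1), was limma's trend method (version 3.58.1, R 4.3.3). It took the 273 names that reached 10 RPM in 11 or more libraries, and p-values (two-sided, threshold 0.05) were adjusted over them by Benjamini-Hochberg. Low names can change more than this scale shows. Code digits were contrasted in a model with all 4 digits. Permutation tests used 100000 resamples in scipy 1.17.1. Tried besides were another pseudocount, other minimums, median-ratio scaling, robust limma, edgeR 4.0.16, DESeq2 1.42.0 and limma-voom on recovered reads, the replicate block and leaving out libraries. The fits were tested on simulated data.

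Named miRNAs are all names of the rule, the 5 most like miR-34c-5p by Pearson's r over all 22 and over 19 libraries, and for the lists their counts with the most abundant members. The members, lists and tests were chosen with earlier results of these data known, CPF replicates 7, 8 and 9 among them. The marker lists for red blood cells (1 of 4 names tested, 0 passed), neurons (1 of 17 tested names higher, miR-132-3p), oligodendrocytes (0 of 4) and vessel wall and muscle (0 of 5) were read from the same fit. Over all 273 tested names 0.733% passed, and nothing is read from these list counts.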

Additional observations from a re-analysis of the deposited data

Results flagged for a closer look

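Sets of 4 to 10 libraries were searched for a value far from the others, using the code digits, since each whole group has 11 libraries. Of 21 such sets 2 held one. The rate of about 1 in 20 by chance need not hold for counts this low. A single read among libraries with none always lies a full range from the others. miR-34c-3p in control replicate 7 was at 57.7 RPM, 4 reads, where the next value of digit 4 was 14.1 RPM. miR-34b-5p in control replicate 2 was at 14.2 RPM, a single read, where the other 4 libraries of digit 1 had none.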

How the results depend on the processing

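No member's comparison passed in any setting run. For CPF against control, fits with libraries left out included, the adjusted p ran from 0.292 to 0.985 for miR-34c-5p and from 0.0600 to 0.324 for miR-34b-3p. Over the digit contrasts and their alternatives it ran from 0.0575 to 0.999 and from 0.0531 to 0.997. Over both kinds it was 0.648 to 0.997 for miR-34b-5p and 0.659 to 0.998 for miR-34c-3p. With each library left out in turn, the log2 fold change of miR-34c-5p was 0.38 to 0.67. miR-34c-3p turned to lower in CPF without CPF replicates 7, 8 and 9 (adjusted p = 0.998, and 0.985 with no minimum) and for digit 3 against 1 (adjusted p = 0.984). Without those replicates it was also lower for digit 6 against 4 (-0.46) and against 1 (-0.90), as it was with pseudocount 14 for digit 3 against 4 (-0.08). miR-34b-5p for digit 6 against 4 (-0.05) and miR-34b-3p for digit 6 against 1 (-0.11) likewise turned to lower without those replicates. Without those replicates, these contrasts of miR-34c-5p with digit 6, which keeps 2 libraries, turned sign: -0.51 against digit 4, -0.54 against digit 3, and -1.06 and -0.0198 for the differences of effects. Over all names edgeR called 4 with TMM, 4 with RLE and DESeq2 5, against 2 with limma. The correlation of the miR-34c arms passed with pseudocount 14 (r = 0.59, permutation adjusted p = 0.0262). The cause of these changes was not tested. With the replicate block, miR-34c-5p was at 0.57 (p = 0.00688, limma adjusted p = 0.294), miR-34b-3p, miR-34b-5p and miR-34c-3p had adjusted p of 0.294, 0.783 and 0.944, and 2 names passed. The labels do not say whether replicate numbers pair the libraries. Of 11 same-numbered pairs 2 had a correlation of deviations over 0.1, which cannot settle whether they are paired. No value came from edgeR, limma-voom or a minimum of 50 RPM for the low members, nor from DESeq2 for miR-34b-3p. With the minimum of 10 RPM, CPF against control without those replicates gave no value for miR-34b-3p and miR-34b-5p. For miR-34b-3p it also gave none in 11 of 22 omissions of a single library. Depth limits all members but miR-34c-5p, since the others averaged under 3 reads per library. The alternatives with no minimum and without those replicates, edgeR without control replicate 2, and all those for miR-34b-5p and miR-34a-5p were chosen after seeing the data.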

Other observations

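Outside CPF replicates 7, 8 and 9, the names most like miR-34c-5p were others. Over the remaining 19 libraries the first 5 by Pearson's r of log2(RPM + 1) were miR-380-3p (r = 0.66), the synaptic miRNA miR-138-5p (0.65), miR-3547 (0.64), miR-434-5p (0.62) and miR-375-3p (0.53), where the median r of 269 names was 0.03. miR-375-3p was the only one of these 5 also among the first 5 over all 22 libraries. The mean of miR-138-5p was 2287 ± 323 RPM in control libraries and 2295 ± 190 RPM in CPF libraries. For miR-434-5p it was 5860 ± 837 and 6216 ± 457 RPM (SD, n = 11 each). miR-380-3p and miR-3547 averaged 2 and 2.82 reads per library, under the floor. These are descriptions with no test, from the highest of 269 values.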
